A study of Mus musculus with 50 samples.

Results

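Ucn, Trim54 and Crhr2 were followed CpG by CpG in soleus muscle, comparing wild-type animals (WT) with animals that lack Dnmt3a in their muscle fibres (mD3AKO). A CpG was taken as a member when the authors' table placed it in the promoter or the body of 1 of these 3 genes. This gave 28 of the 205304 CpGs of the series, 11 of Ucn, 6 of Trim54 and 11 of Crhr2. The Ucn and Trim54 CpGs, with 1 CpG between the genes that the table assigned to neither, made up a single cluster of 18 CpGs on chromosome 5, and the Crhr2 CpGs made up 2 clusters on chromosome 6. The genes were selected on the methylation difference between mD3AKO and WT at these CpGs. Levels by genotype are therefore given as a description with no p-value, and the number of members called between genotypes is given once and supports nothing. For the members, p-values are given only for time after exercise, its interaction with genotype, sex, and the relation of their levels over samples. Other clusters are given p-values for genotype.

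The assay was reduced representation bisulfite sequencing (RRBS), in which DNA is cut with MspI at CCGG and bisulfite turns unmethylated cytosines into bases read as thymine. All mice were C57BL/6, 12 weeks old and homozygous for a floxed Dnmt3a allele. The mD3AKO mice also carried Cre recombinase driven by the promoter of muscle creatine kinase, which acts in muscle fibres once they have differentiated, so satellite cells and non-muscle cells are likely to have kept Dnmt3a. Mice were killed at rest or at 10, 30 or 60 min after 30 min of treadmill running. In that order the groups held 5, 5, 5 and 6 WT samples and 5, 5, 7 and 6 mD3AKO samples with both sexes among the mice of each genotype. Resting and 60 min mice carried the sample numbers 1 to 25, while 26 to 50 were given to the 10 and 30 min mice, so that sample set and time cannot be told apart except between rest and 60 min or between 10 and 30 min.

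Urocortin, the product of Ucn, is a peptide of the corticotropin-releasing factor (CRF) family and binds both CRF receptors, CRHR1 and CRHR2. CRHR2 is the receptor found in skeletal muscle. It couples through Gs to adenylyl cyclase, and its activation raises cAMP and is known to oppose muscle wasting in rodents. Trim54 encodes MuRF3, a RING-finger ubiquitin ligase of striated muscle that binds microtubules and sarcomeric proteins. DNMT3A places new methyl groups on CpGs, and unmethylated CpG-rich start sites are typical of genes that can be transcribed.

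Across the 44 samples with counts, 12819404 to 41285655 calls were made per sample, and every CpG of the table had at least 8 in each sample. The table holds no expression values, so neither the tissue nor its cell types could be checked by markers. The 21 CpGs of Dnmt3a were all covered in mD3AKO, and 0 had a lower relative coverage in every mD3AKO sample, so the deletion itself could not be read from the counts. The unweighted mean level over all CpGs averaged 25.4% ± 0.781 over the WT samples (SD, n = 21) and 24.6% ± 0.700 over the mD3AKO samples (SD, n = 23). Over all 51038 clusters the median difference of mD3AKO minus WT was -0.455 percentage points. A level in whole muscle is a mean over all its cells, and fewer methylated cells and less methylation per cell cannot be told apart.

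Ucn and Trim54 lie tail to tail on chromosome 5 (mm10, the same assembly as GRCm38). Trim54 is on the plus strand and ends at 31137630, and Ucn is on the minus strand. Its start is at 31138895 in RefSeq and at 31138829 in GENCODE release M21, and the RefSeq start is used for distances here, negative upstream of Ucn. Of the 11 Ucn CpGs, 7 lay upstream of the start, at -3 to -123 bp, 1 lay at 0, and the others lay at +6, +118 (in an intron) and +942 bp, just past the end of the gene. The stretch with the 7 upstream CpGs is printed because it has most of the 11 Ucn CpGs. It holds the 250 bases before the RefSeq start on the minus strand (chr5:31138896-31139145), read 5′ to 3′ from GRCm38, with the measured CpGs in capitals.
Ucn upstream: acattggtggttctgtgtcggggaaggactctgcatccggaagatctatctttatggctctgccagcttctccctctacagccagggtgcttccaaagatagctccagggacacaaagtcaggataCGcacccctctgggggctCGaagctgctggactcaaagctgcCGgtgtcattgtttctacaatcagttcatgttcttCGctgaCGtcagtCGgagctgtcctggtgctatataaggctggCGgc

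Read from left to right, the capitals are the CpGs at -123, -105, -81, -46, -40, -33 and -3 bp. The CpG at -40 (31138935) is the centre of TGACGTCA, the full cAMP response element (CRE), which runs from -44 to -37 and is bound by CREB-family factors. That palindrome reads the same on both strands and occurred in 588 of 32851 RefSeq promoter windows of 250 bases before to 50 after a start (1.79%). A match to TATANAN on the same strand as the gene, TATATAA, was found at -17 to -11. TATANAN on either strand occurred in 24.6% of the windows, and a match on the opposite strand overlaps this one. CCGG, the MspI site, occurred 3 times in the Ucn window and in 52.8% of all windows. The CpGs at -33, -40 and -46 had equal coverage in 44 of 44 samples, to within 2%, and were thus read on the same fragments.

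The 6 Trim54 CpGs lay in a coding exon near the end of the gene (31136888 to 31137012), which overlaps an exon of the antisense gene Gm15469. No CpG of the Trim54 promoter was among those measured. The stretch is printed because all 6 fall within 75 bases of the plus strand (chr5:31136926-31137000), with the measured CpGs in capitals.
Trim54 exon: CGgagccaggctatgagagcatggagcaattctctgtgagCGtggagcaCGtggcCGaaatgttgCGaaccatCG

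The 5 CpGs from 31136966 to 31136999 shared their coverage in at least 41 of 44 samples. The whole cluster spanned 2094 bp with a GC content of 61.5%, an observed to expected CpG ratio of 0.651 and 15 CCGG sites. RRBS thus sampled 18 of its 129 CpGs, with a longest gap of 828 bp between neighbours.

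Crhr2 lies on the minus strand of chromosome 6 and has an upstream start at 55133016 and an inner start at 55117913, from which shorter transcripts begin. The table assigned the 11 CpGs to the gene body. 9 of them lay 71 to 396 bp downstream of the inner start, in a span of 327 bp with a GC content of 70.9%, and 2 lay in the last exon (55091326 and 55091329). No CpG near the upstream start was among those measured. The 7 CpGs closest to the inner start, 6 of them with equal coverage in at least 43 of 44 samples, fall in the first exon of the shorter transcripts, in 29 bases of the minus strand (chr6:55117815-55117843) that are printed because they hold most of the Crhr2 CpGs. Capitals again mark the measured CpGs.
Crhr2 inner start: CGtCGCGccCGctccctCGcagccaCGCG

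At the Ucn/Trim54 cluster, the mean level of mD3AKO over all times was below that of WT at all 18 CpGs. Over the cluster, no mD3AKO sample reached the lowest WT sample. At rest alone the mD3AKO mean was the higher at -123 bp (18.7% against 5.74%), -105 bp (10.1% against 6.01%) and +6 bp (0.952% against 0%). At every other CpG of the cluster it was the lower at rest. Taken as methylated calls over all calls of the cluster, WT levels averaged 15.0% ± 5.03 (SD, n = 21; lowest 8.04%, median 16.1%, highest 25.3%). They averaged 3.43% ± 1.54 (SD, n = 23; lowest 0.434%, median 3.40%, highest 6.81%) in mD3AKO, a difference of -11.6 percentage points. Between 886 and 3989 calls per sample lay behind these levels. The whole series held 4 clusters of 51038 in which every mD3AKO sample was below every WT sample (0.00784%), and clusters called lower in mD3AKO at an adjusted p under 0.05 (edgeR quasi-likelihood test) made up 1.09%. Of the 3 member clusters, 2 were called lower, and of the 28 member CpGs 14 were, where 0.283% of all CpGs were. Since this contrast chose the genes, those counts describe the choice.

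**Figure D1:**
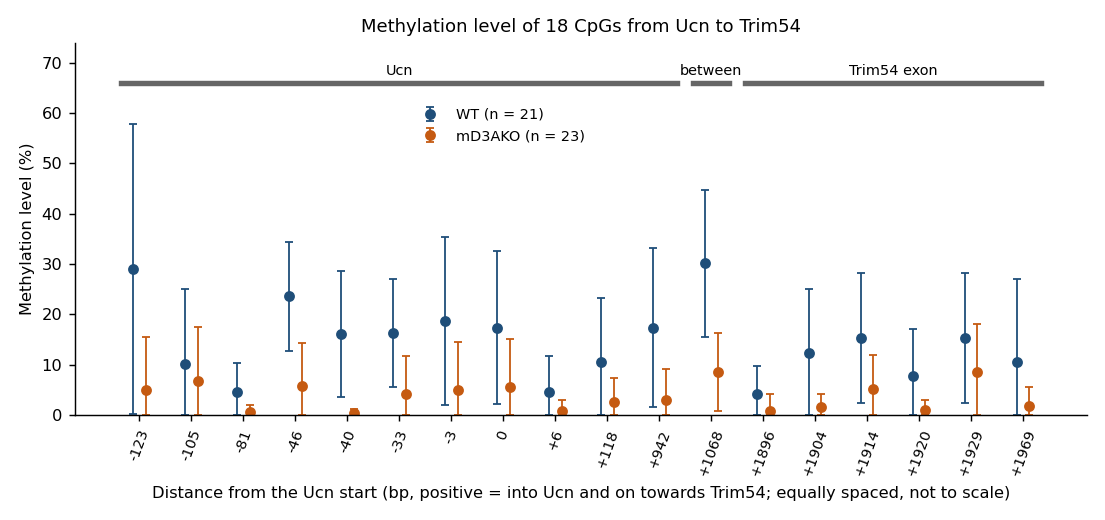
Mean methylation level in percent of each of the 18 CpGs in WT (blue, n = 21) and mD3AKO (orange, n = 23), ordered by distance in bp from the Ucn start and equally spaced; bars are 1 SD, cut at 0. The mD3AKO mean lies below the WT mean at all 18 CpGs, and the CpG at -40, inside the CRE, has the lowest mD3AKO mean, 0.308%.

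The CpG at the centre of the Ucn CRE was nearly unmethylated in mD3AKO. It had a level of 16.1% ± 12.5 (SD, n = 21; lowest 0%, median 15.1%, highest 36.7%) in WT and 0.308% ± 0.790 (SD, n = 23; lowest 0%, median 0%, highest 3.61%) in mD3AKO. No methylated call was made in 17 of the 23 mD3AKO samples and in 2 of the 21 WT samples. Pooled over samples, mD3AKO had 15 methylated calls among 4067 and WT had 467 among 2817. On the same fragments, the CpG at -33 was at 4.18% ± 7.53 and the CpG at -46 at 5.73% ± 8.57 in mD3AKO (SD, n = 23). The CRE CpG was below the mean of these neighbours in 21 of 23 mD3AKO samples and equal to it in 2. In WT the neighbours were at 16.3% ± 10.8 and 23.6% ± 10.8 (SD, n = 21), and the CRE CpG was below their mean in 13 of 21 samples. This site was singled out after its values were seen, and the difference between neighbours was not tested.

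The other CpGs around the Ucn start fell into lightly and more strongly methylated positions. In WT the CpGs at 0 and -3 bp were at 17.4% ± 15.2 and 18.6% ± 16.7 (SD, n = 21), whereas those at +6 and -81 bp, both within a CCGG, were at 4.47% ± 7.23 and 4.65% ± 5.76. In mD3AKO the same 4 CpGs were at 5.64% ± 9.47, 4.90% ± 9.63, 0.770% ± 2.17 and 0.637% ± 1.27 (SD, n = 23). The furthest upstream CpG, at -123 bp, had the widest spread in WT, from 0% to 100% with a median of 15.3%, at 11 to 242 calls per sample. In mD3AKO it had a mean of 4.92% ± 10.7 (SD, n = 23) and a median of 0%. The CpG next to it, at -105 bp, differed least of the Ucn CpGs, with 10.1% ± 14.8 in WT and 6.79% ± 10.7 in mD3AKO, and 17 of 23 mD3AKO samples lay below the WT mean. The intronic CpG at +118 bp had 10.5% ± 12.8 in WT and 2.51% ± 4.92 in mD3AKO. Pooling all 11 Ucn CpGs gave 15.4% ± 5.71 for WT (SD, n = 21; lowest 8.75%, highest 27.9%) and 3.34% ± 2.82 for mD3AKO (SD, n = 23; lowest 0.372%, highest 11.9%), with 21 of 23 mD3AKO samples below every WT sample.

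The CpG between the genes, at +1068 bp, had the highest WT mean of the cluster, 30.1% ± 14.7 (SD, n = 21; lowest 3.01%, highest 53.8%) in WT and 8.51% ± 7.70 (SD, n = 23; lowest 0%, highest 25.5%) in mD3AKO. The CpG at +942 bp had 17.4% ± 15.7 and 2.97% ± 6.24. All 23 mD3AKO samples were below the WT mean at the former and 22 of 23 at the latter.

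In the Trim54 exon the groups overlapped. The level over its 6 CpGs was 10.9% ± 7.14 (SD, n = 21; lowest 0%, median 11.1%, highest 20.8%) in WT and 3.17% ± 2.31 (SD, n = 23; lowest 0%, median 2.53%, highest 6.71%) in mD3AKO. All 23 mD3AKO samples were below the WT mean, but 8 of 21 WT samples lay at or below the highest mD3AKO sample. Both genotypes were covered by 208 to 1671 calls per sample. Where no methylated call was made, in 1 WT and 3 mD3AKO samples, the counts allow levels of up to 0.356% in the WT sample and 0.266% to 1.44% in the mD3AKO samples. Single CpGs of the exon had means of 4.20% to 15.3% in WT and of 0.770% to 8.45% in mD3AKO. The CpG at 31136966 kept most methylation in mD3AKO, 8.45% ± 9.64 against 15.3% ± 12.9 in WT. The CpG at 31136975, on the same fragments, went from 7.77% ± 9.36 in WT to 0.954% ± 2.12 in mD3AKO.

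At the inner start of Crhr2 the WT muscles differed widely among themselves and the mD3AKO muscles were close to 0. The level over the 9 CpGs was 17.0% ± 13.0 (SD, n = 21; lowest 1.65%, median 14.9%, highest 49.9%) in WT and 1.48% ± 1.88 (SD, n = 23; lowest 0%, median 0.833%, highest 6.04%) in mD3AKO. All 23 mD3AKO samples were below the WT mean, 15 of them were below every WT sample, and 4 of 21 WT samples lay at or below the highest mD3AKO sample. No methylated call was made in 8 mD3AKO samples, with 224 to 922 calls each, which allows levels of up to 0.325% to 1.34%. These limits and the intervals of single samples cover counting error only, since PCR copies could not be told apart. They also take every call as independent, although CpGs read on the same fragments may not be, so they can be too narrow.

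All 9 CpGs shared this difference. WT means ran from 7.87% at +96 bp to 25.2% at +76 bp and mD3AKO means from 0.568% at +71 bp to 3.80% at +76 bp. The CpG at +396 bp, which lies in a coding exon and is read on other fragments, had a WT level of 17.8% ± 14.5 (SD, n = 21) and an mD3AKO level of 0.791% ± 2.43 (SD, n = 23). The CpGs of the last exon were highly methylated in both genotypes, at 82.7% ± 11.7 (SD, n = 21; lowest 53.9%, highest 98.7%) in WT and 77.8% ± 14.0 (SD, n = 23; lowest 51.7%, highest 98.7%) in mD3AKO.

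**Figure D2:**
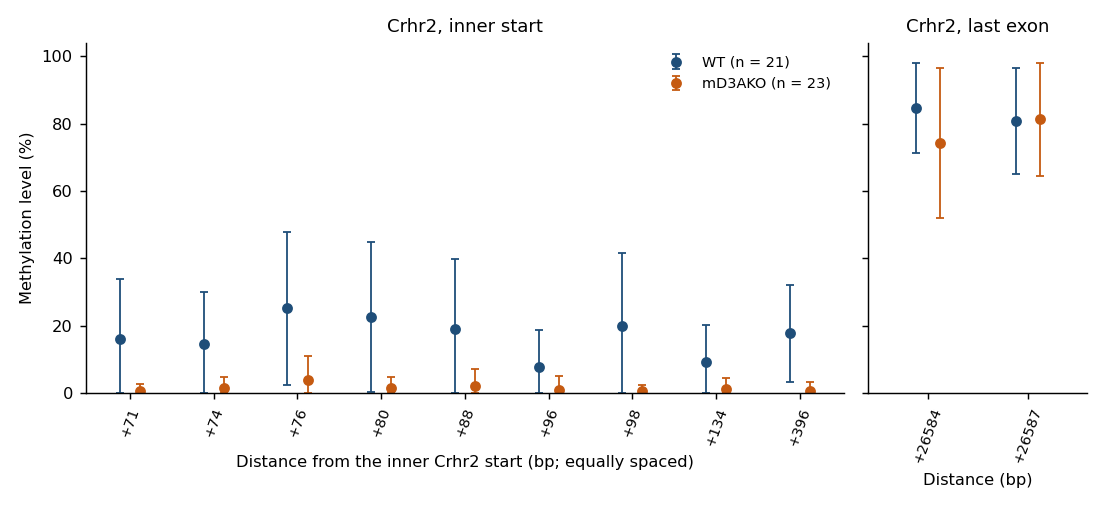
Mean methylation level in percent of the 11 Crhr2 CpGs in WT (blue, n = 21) and mD3AKO (orange, n = 23), by distance in bp from the inner start, equally spaced; bars are 1 SD, cut at 0 and 100. The 9 CpGs near the inner start have mD3AKO means of 0.568% to 3.80%, and the 2 CpGs of the last exon lie above 70% in both genotypes.

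Time after the run was not followed by a called change at any of the genes. At the Ucn/Trim54 cluster the 5 WT samples at rest were at 18.0%, 9.12%, 8.93%, 19.0% and 8.04%. At 10 min WT samples had 20.0%, 19.8%, 11.8%, 20.8% and 9.28%, and at 30 min 25.3%, 16.1%, 10.9%, 17.2% and 9.68%. The 6 WT samples at 60 min ran from 10.1% to 19.8% with a median of 16.0%. Low and high WT samples thus occurred at every time. In order of their means, WT was at 12.6% ± 5.40 at rest (SD, n = 5), 15.2% ± 3.97 at 60 min (SD, n = 6), 15.8% ± 6.21 at 30 min (SD, n = 5) and 16.3% ± 5.37 at 10 min (SD, n = 5), and neighbours in that order differed by less than their SDs.

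The mD3AKO samples at rest had levels of 4.32%, 3.35%, 1.28%, 1.81% and 6.81%, and those at 10 min had 1.38%, 0.434%, 3.15%, 3.78% and 5.34%. The 7 samples at 30 min ran from 2.34% to 6.71% (median 3.19%) and the 6 at 60 min from 2.17% to 4.13% (median 3.58%). The means were 2.82% ± 1.95 at 10 min (SD, n = 5), 3.47% ± 0.692 at 60 min (SD, n = 6), 3.51% ± 2.20 at rest (SD, n = 5) and 3.78% ± 1.45 at 30 min (SD, n = 7), again closer to each other than their SDs. At each time, every mD3AKO sample was below every WT sample.

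Both genes of the cluster were also followed on their own. At the Ucn CpGs, WT samples had 10.7%, 8.75%, 10.1%, 20.3% and 10.8% at rest, 27.3%, 22.5%, 10.5%, 19.3% and 9.89% at 10 min, and 27.9%, 14.6%, 10.5%, 18.0% and 10.6% at 30 min, and they ran from 11.8% to 19.6% (median 14.9%) at 60 min. The mD3AKO samples had 2.79%, 1.58%, 0.631%, 2.72% and 10.8% at rest and 1.64%, 0.372%, 2.70%, 3.46% and 4.01% at 10 min, and ran from 0.854% to 11.9% (median 3.33%) at 30 min and from 1.26% to 4.08% (median 2.76%) at 60 min. A single mD3AKO sample at rest and another at 30 min reached into the WT range. In the Trim54 exon, WT samples had 16.4%, 6.33%, 2.33%, 13.1% and 3.13% at rest, 9.46%, 6.70%, 11.1%, 16.0% and 0% at 10 min, and 19.6%, 18.7%, 7.78%, 12.8% and 4.71% at 30 min, with 0.330% to 20.8% (median 18.7%) at 60 min. The mD3AKO samples had 6.65%, 2.12%, 5.87%, 0% and 1.80% at rest and 0.620%, 0%, 3.38%, 5.37% and 6.03% at 10 min, with 1.01% to 5.92% (median 1.79%) at 30 min and 0% to 6.71% (median 4.29%) at 60 min. Low WT samples, under the highest mD3AKO sample, occurred at all 4 times in this exon.

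**Figure D3:**
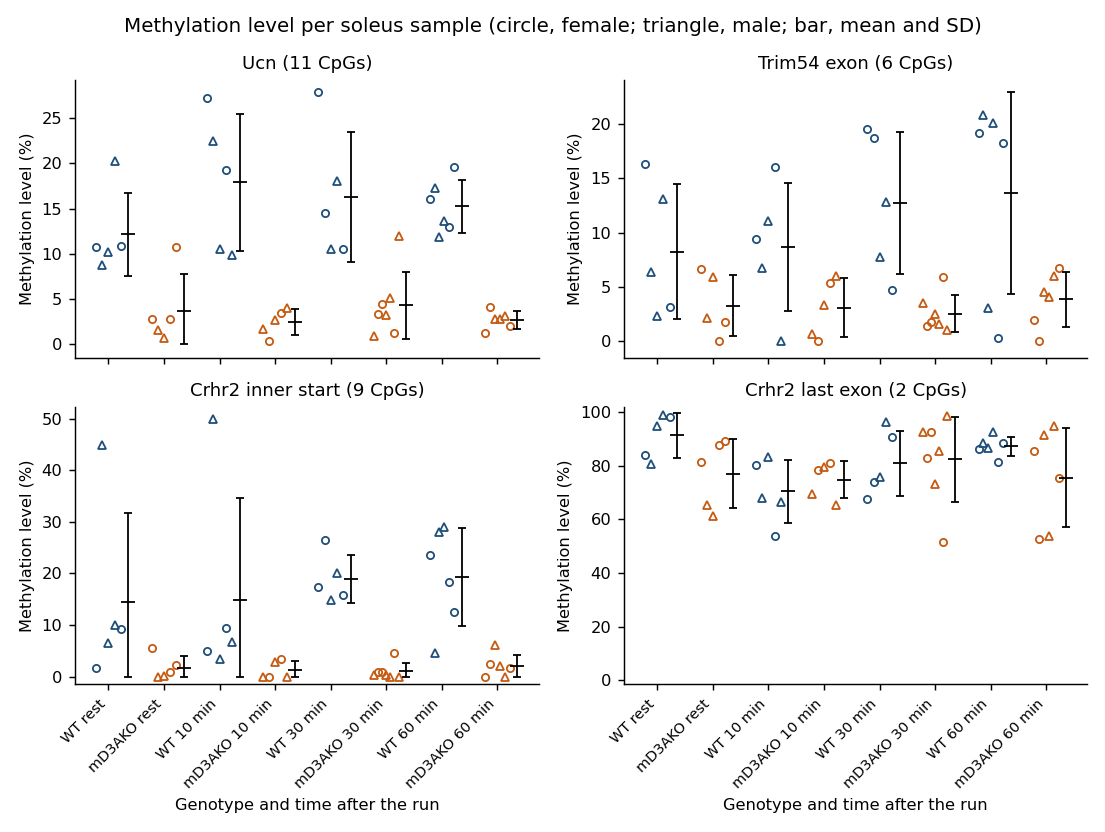
Methylation level in percent of each soleus sample at Ucn (11 CpGs), the Trim54 exon (6), the inner start of Crhr2 (9) and the Crhr2 last exon (2), by genotype and time after the run; circles are females, triangles males, and black bars the mean and SD cut at 0 and 100. At the inner start of Crhr2 2 WT samples stand at 44.9% and 49.9%, above all others.

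At the inner start of Crhr2, WT samples at rest had 1.65%, 44.9%, 6.43%, 10.0% and 9.14%, and those at 10 min had 5.00%, 49.9%, 3.47%, 9.32% and 6.71%. At 30 min they had 17.4%, 26.5%, 14.9%, 20.1% and 15.8%, and the 6 at 60 min ran from 4.61% to 29.0% with a median of 21.0%. At rest and 10 min 1 sample in each group stood far above the others, while the 30 min samples lay close together. The means were 14.4% ± 17.3 at rest (n = 5), 14.9% ± 19.7 at 10 min (n = 5), 18.9% ± 4.67 at 30 min (n = 5) and 19.4% ± 9.49 at 60 min (SD, n = 6), and no neighbours in that order differed beyond their SDs. In mD3AKO the means lay between 1.00% ± 1.65 at 30 min (SD, n = 7) and 2.02% ± 2.22 at 60 min (SD, n = 6).

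In edgeR's quasi-likelihood test with Benjamini-Hochberg adjustment over all clusters, 0 of the 3 member clusters changed with time, with an unadjusted p under 0.05 in 0 of them, where 0% of all clusters were called. The interaction of genotype and time was called in 0 of 3 member clusters (0 unadjusted) and in 0% of all clusters. Time within mD3AKO likewise gave 0 of 3 (0 unadjusted) and 0% of all. Time within WT gave 0 of 3, with 1 unadjusted, and 0% of all, where 3.22% of all clusters had an unadjusted p under 0.05. The likelihood ratio test and limma also called 0 of 3 in each of these contrasts, with 0 unadjusted in each except 1 by limma for time within WT. In that contrast 5.42% of all clusters had an unadjusted p under 0.05 by limma. Over all 51038 clusters the likelihood ratio test called 376 for time, 379 for the interaction, 408 for time within WT and 157 for time within mD3AKO, and limma called 0, 1, 1 and 0. For the Ucn/Trim54 cluster the adjusted p was 1 for time and 1 for the interaction (unadjusted p of 0.708 and 0.627), and for the inner start of Crhr2 it was 1 and 1 (0.568 and 0.693). A p that misses the threshold does not show that the levels stayed the same: a WT group of 5 or 6 samples had an SD of 3.97 to 6.21 percentage points at the Ucn/Trim54 cluster.

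The cluster with an unadjusted p under 0.05 within WT was the last exon of Crhr2 (p of 0.0389, adjusted p = 1). Its WT level was 91.3% ± 8.39 at rest (SD, n = 5), 70.4% ± 11.8 at 10 min (SD, n = 5), 80.9% ± 12.1 at 30 min (SD, n = 5) and 87.3% ± 3.56 at 60 min (SD, n = 6). It rests on 2 CpGs read together, with 36 to 383 calls per sample. In mD3AKO the means were between 74.8% ± 6.91 at 10 min (SD, n = 5) and 82.4% ± 15.9 at 30 min (SD, n = 7).

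CpGs were also tested one at a time. Of the 28 member CpGs, 0 were called for time (1 with an unadjusted p under 0.05) and 0 for the interaction (1 unadjusted), and 0% of all CpGs were called in either contrast. The likelihood ratio test called 0 and 0 of the 28 (3 and 4 unadjusted) and limma 0 and 0 (1 and 2 unadjusted). An unadjusted p under 0.05 was found in 3.35% and 2.85% of all CpGs by the quasi-likelihood test. The likelihood ratio test gave 7.93% and 6.95%, and limma 5.04% and 3.69%. Over all CpGs the likelihood ratio test called 12 and 4, and limma 0 and 1. The CpG with the lowest p for the interaction was the most variable Ucn CpG, at -123 bp, with an unadjusted p of 0.00115 and an adjusted p of 1 by the quasi-likelihood test. The methods differed here, as the likelihood ratio test gave this CpG an unadjusted p of 5.26e-06 and an adjusted p of 0.0801, and limma an unadjusted p of 0.00272. From rest to 60 min its WT means were 5.74% ± 6.26, 27.8% ± 33.1, 38.4% ± 23.0 and 41.6% ± 34.4, and its mD3AKO means were 18.7% ± 17.0, 0%, 0.204% ± 0.540 and 3.04% ± 4.46 (SD). The CRE CpG was between 12.1% ± 14.3 at rest and 20.6% ± 13.9 at 10 min in WT, and between 0% at 60 min and 0.597% ± 1.35 at 30 min in mD3AKO.

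**Figure D4:**
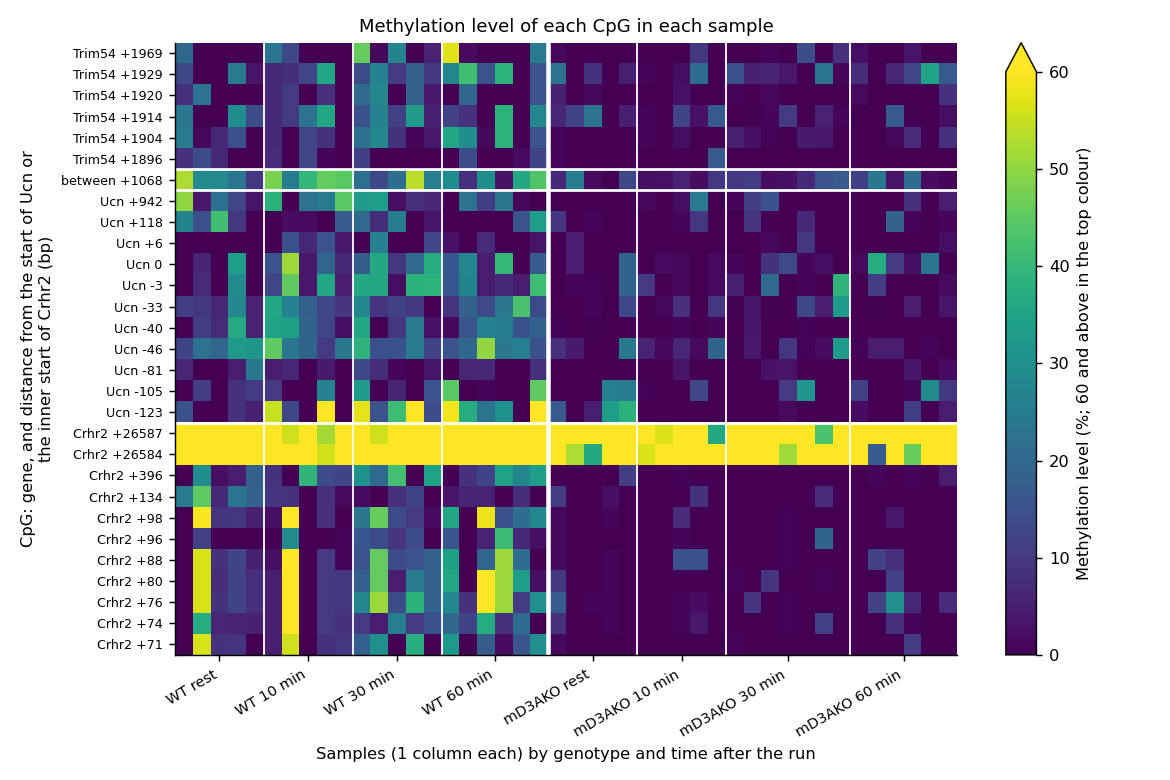
Methylation level in percent of each of the 29 CpGs (rows, the 28 members and the CpG between the genes, by distance in bp from the start of Ucn or the inner start of Crhr2) in each of the 44 samples (columns, by genotype and time); the colour scale ends at 60%. The rows of Ucn, Trim54 and the inner start of Crhr2 are dark in most mD3AKO samples and mixed in WT samples, and the CpG at -40 shows no mD3AKO sample above 3.61%.

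Males and females did not differ by a called amount. Sex was called in 0 of the 3 member clusters (0 unadjusted) and in 0 of the 28 member CpGs (1 unadjusted) by edgeR's quasi-likelihood test, and in 0% of all clusters and 0% of all CpGs. Over all CpGs 6.29% had an unadjusted p under 0.05 by that test, 9.11% by the likelihood ratio test and 4.96% by limma. The likelihood ratio test and limma called 0 of 3 (0 and 0 unadjusted) and 0 of 28 (2 and 1 unadjusted), where over the whole series they called 132 and 0 clusters and 25 and 2 CpGs. At the Ucn/Trim54 cluster WT females were at 16.7% ± 5.49 (SD, n = 10) and WT males at 13.5% ± 4.25 (SD, n = 11), and mD3AKO females and males at 3.34% ± 1.62 (SD, n = 11) and 3.51% ± 1.54 (SD, n = 12). The log2 odds ratio of males to females in the fit was -0.09 ± 0.26 (SE), with an adjusted p of 1.00. At the inner start of Crhr2 it was -0.56 ± 0.64 (SE), with levels of 13.9% ± 7.91 in WT females and 19.8% ± 16.3 in WT males. Both WT samples above 40% were male.

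The genotype difference of the Ucn/Trim54 cluster and of the inner start of Crhr2 had the same direction in each subset of samples. The subsets hold the samples on which the genes were selected, so their differences are a description and support nothing. At the Ucn/Trim54 cluster no subset could show another direction, since every mD3AKO sample was below every WT sample. The difference of that cluster was -10.5 percentage points among samples 1 to 25 (rest and 60 min) and -12.7 among samples 26 to 50 (10 and 30 min). It was -13.3 in females and -9.95 in males. At the inner start of Crhr2 the corresponding differences were -15.2, -15.8, -11.9 and -18.9 percentage points. Without the WT sample at 49.9% the Crhr2 difference was -13.9, and without the WT sample at 44.9% it was -14.1. The last exon of Crhr2 did not keep its direction. Its difference was -12.9 percentage points among samples 1 to 25 and 3.63 among samples 26 to 50, and it was -2.47 in females and -7.08 in males.

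The levels of the genes were then set against each other over samples, after the mean of each of the 8 groups had been removed. Ucn and Trim54, which share a cluster, had a Pearson r of 0.378 and a Spearman rho of 0.368 over 44 samples. In a two-sided permutation test with 100000 permutations within groups, p was 0.0361 for r and 0.0373 for rho, and 0.108 and 0.112 after adjustment over 3 pairs, which does not pass. Without the 2 samples furthest from the median Ucn level r was 0.338, and it was 0.359 among samples 1 to 25 and 0.447 among samples 26 to 50. Within WT it was 0.495 (n = 21) and within mD3AKO -0.217 (n = 23). Ucn and the inner start of Crhr2 had an r of 0.0167 and a rho of 0.0336 (permutation p of 0.939 and 0.850, adjusted 0.939 and 0.902). This r was 0.112 without the 2 furthest samples, and -0.316 and 0.224 in the 2 sets of sample numbers. Trim54 and Crhr2 had an r of -0.108 and a rho of -0.0230 (permutation p of 0.614 and 0.902, adjusted 0.921 and 0.902). This r was -0.0760 without the 2 furthest samples, and -0.216 and 0.0372 in the 2 sets. Both WT muscles with the highest Crhr2 levels had Ucn/Trim54 levels inside the WT range, 9.12% and 19.8%.

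The clusters most like the Ucn/Trim54 cluster were sought among 18705 clusters with at least 3 CpGs and 50 calls in every sample, more than 1 Mb away or on another chromosome, by the Pearson r of the same values. The 5 highest were an unassigned cluster on chromosome 2 (166180810 to 166180963, r of 0.594) and clusters of Rara (0.584), Zfp36 (0.578), Mars2 (0.566) and Synj2 (0.555), each over 44 samples. The order depended on the measure, since 1 of these 5 stayed among the first 5 with Spearman's rho and 0 stayed when the CpGs were averaged unweighted. The 18705 values had a median of 0.0190, and 95% of them lay between -0.303 and 0.341. Rara encodes a retinoic acid receptor and its cluster had levels of 5.60% ± 2.55 in WT and 1.41% ± 1.16 in mD3AKO. That of Synj2, an inositol phosphatase gene, had 12.6% ± 5.77 and 3.67% ± 3.23. Zfp36 (an mRNA decay factor) and Mars2 (a mitochondrial tRNA synthetase) had levels under 1% in both genotypes, and the unassigned cluster had 3.89% ± 2.57 and 1.97% ± 1.68. The points of each r share their libraries and depth.

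The loss in mD3AKO was then compared with the clusters around Ucn, which the choice of genes did not use. Of 15 other clusters within 200 kb of the Ucn start, 7 were lower in mD3AKO, where 62.4% of all clusters were, and the median difference was 0.0632 percentage points. Of the 15, 1 was called lower, where 1.09% of all clusters were (edgeR quasi-likelihood test, adjusted over all clusters, 2 with an unadjusted p under 0.05). It lay at -84.1 kb along the chromosome (negative on the Trim54 side), at Cad and Atraid (31054347 to 31055201, 13 CpGs), with a WT level of 4.14% ± 2.16 (SD, n = 21) and an mD3AKO level of 0.947% ± 0.620 (SD, n = 23). Its adjusted p was 0.000514, and all 23 mD3AKO samples were below the WT mean. Cad encodes the enzyme that starts pyrimidine synthesis. The nearest cluster on that side, 16 CpGs of the zinc transporter gene Slc30a3 at -45.8 kb, had 2.73% ± 2.19 and 1.85% ± 1.21 (adjusted p of 0.867). The nearest on the other side, 5 CpGs of Gm29609 at 34.0 kb, had 91.2% ± 7.47 and 89.3% ± 4.35 (adjusted p of 0.637). In WT, 8 of the 15 clusters were under 5%.

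**Figure D5:**
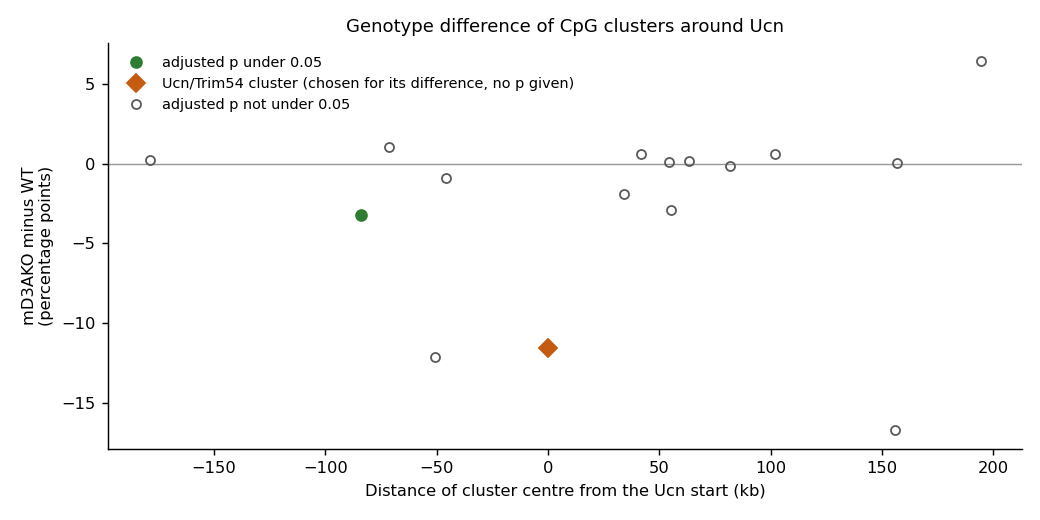
Difference of mD3AKO minus WT in percentage points (y axis) of the 15 other clusters within 200 kb, by distance of the cluster centre from the Ucn start in kb (x axis); the filled green point is the called cluster and the orange diamond the Ucn/Trim54 cluster, shown as a description with no p. The called cluster of Cad and Atraid lies at -84.1 kb, on the Trim54 side, and the lowest open points, of Gckr/Fndc4 and Slc30a3, did not pass the test.

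Genes of the same pathways were taken from lists. Of the other CRF ligands and the binding protein, 2 of 4 were measured: a Ucn3 cluster was at 80.9% ± 12.2 in WT and 79.5% ± 8.25 in mD3AKO (adjusted p of 0.940), and the single CpG of Crhbp, which encodes the CRF-binding protein, at 0.282% ± 1.29 and 1.29% ± 4.74 (adjusted p of 1). Of their 3 clusters, 0 were called by any of the 3 methods and 0 had an unadjusted p under 0.05. Over all clusters the quasi-likelihood test called 1.09% lower, and 9.56% had an unadjusted p under 0.05. The Crhr1 receptor gene had 7 clusters, of which 0 were called (1 with an unadjusted p under 0.05). Its lowest p belonged to a single CpG with 31.2% ± 26.7 in WT and 52.6% ± 26.2 in mD3AKO, the opposite direction to Crhr2, with an adjusted p of 0.345 by the quasi-likelihood test, 0.129 by limma and 0.0234 by the likelihood ratio test.

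Among 29 genes of cAMP signalling below CRHR2, all 29 were measured in 109 clusters. Of these, 4 were called lower in mD3AKO and 0 higher, where 1.09% of all clusters were called lower. Called or not, 70 of the 109 had a lower mean in mD3AKO, where 62.4% of all clusters did. Their median difference was -0.787 percentage points where that over all clusters was -0.455. The called clusters belonged to Rapgef3, Pde4c and Prkar2b. Rapgef3, which encodes the cAMP-activated exchange factor EPAC1, held 2 of them, and its lowest p was for 5 CpGs with 14.6% ± 7.00 in WT and 5.14% ± 4.41 in mD3AKO (log2 odds ratio -1.95, adjusted p of 0.00227). For Pde4c, a cAMP phosphodiesterase, the levels were 32.0% ± 8.52 and 17.6% ± 8.44 (adjusted p of 0.00362), and for Prkar2b, a regulatory subunit of protein kinase A, 76.5% ± 10.9 and 59.1% ± 12.3 (adjusted p of 0.0441). Below the mean of WT lay 22, 22 and 21 of 23 mD3AKO samples. The likelihood ratio test called 5 clusters of the list lower and 0 higher. It did not call those of Pde4c and Prkar2b (adjusted p of 0.0886 and 0.0939). That test called clusters of Gnas, Pde4d and Rapgef4 in their place (adjusted p of 0.0124, 0.0320 and 0.00684), all lower in mD3AKO and named here after their values were seen. Limma also called 5 lower and 0 higher, among them a cluster of Pde4a (adjusted p of 0.0436), likewise named after its value was seen. Over all 51038 clusters the likelihood ratio test called 1442 between genotypes, in either direction, and limma called 895.

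Of the 10 other muscle ubiquitin ligases, 9 were measured in 17 clusters, with a median difference of 0.00310 percentage points. Of these clusters 0 were called and 0 had an unadjusted p under 0.05. The shares over all clusters were 1.09% called lower and 9.56% unadjusted, so a list this short would hold few calls or none at the same share. Limma and the likelihood ratio test also called 0. The 4 genes with the lowest p were Fbxo32, Asb2, Cul3 and Trim63. Fbxo32 (atrogin-1) was at 87.2% ± 6.09 in WT and 82.2% ± 6.74 in mD3AKO, Asb2 at 38.6% ± 14.8 and 29.4% ± 17.0, Cul3 at 1.42% ± 1.09 and 1.87% ± 1.12, and Trim63, which encodes the related MuRF1, at 29.7% ± 22.7 and 38.0% ± 25.8. Their adjusted p ran from 0.621 to 0.814. Of 6 substrates and partners of MuRF3, 5 were measured in 10 clusters, 0 of which were called by any of the 3 methods (0 unadjusted by the quasi-likelihood test). The 4 with the lowest p were Fhl2, a LIM-domain protein gene, at 0.268% ± 0.856 and 0.753% ± 1.44, Flnc (filamin C) at 1.77% ± 2.53 and 1.10% ± 2.41, the ubiquitin-conjugating enzyme gene Ube2e1 at 5.95% ± 6.26 and 3.07% ± 2.97, and Myh2, a fast myosin heavy chain gene, at 67.9% ± 27.9 and 63.9% ± 19.3.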

How the data were processed

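Per the labels and the methods of the study, the authors trimmed 75-bp single-end reads with Trim Galore 0.4.0 (RRBS mode, cutadapt 1.9.1), aligned them to mm10 with Bismark 0.18.1, added both strands and kept autosomal CpGs with at least 8 calls in every sample. What they deposited are raw counts, 1 methylated and 1 unmethylated per CpG and sample, not normalized, for 44 of 50 samples; the other 6 were not analysed here. CpGs were grouped in clusters (gaps of at most 100 bp before the coverage filter) and assigned to promoters (3000 bp before to 1000 bp after a start) by the authors. Reads carried no molecular identifiers. Nothing says that samples share an animal, and counts of no 2 samples of the same group (101 pairs) agreed within sampling noise. Since PCR copies could not be told apart, that comparison cannot show whether samples share an animal.

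Levels are methylated calls over all calls. Clusters and CpGs were tested in edgeR 4.0.16 (R 4.3.3) with a coefficient per sample and per group on the methylated calls, as in the design of the study; 1 common dispersion came from 1 in 10 features. P-values were adjusted over all 51038 clusters or 205304 CpGs, with 0.05 as the threshold. The likelihood ratio test and limma 3.58.1 on log2 ratios with a pseudocount of 1 were alternatives. The fits were also run on simulated data whose spread between samples was set and not taken from these samples, so nothing is concluded from that run. Intervals of single samples are 95% Wilson intervals, and a count of 0 allows 3 calls. Both take every call as independent and can be too narrow where CpGs share fragments. A genotype test of Crhr2 had been planned, but its p is not given, and its call only within the count of members called, since the same contrast chose the gene. Named genes were the members, per list the genes with a called cluster or else the 4 with the lowest p, called and nearest clusters within 200 kb, and the 5 most alike. The members and lists were chosen with earlier results of these data known. Sequences and promoter windows are from RefSeq on GRCm38, where all 3 genes matched, and exons from GENCODE M21.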

Additional observations from a re-analysis of the deposited data

Results flagged for a closer look

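In 48 sets of samples (6 stretches by 8 groups), 8 held a sample that stood apart from its group by Dixon's criterion at the 95% level. About 1 in 20 sets, or 2.4, would do so if the sets were independent and their values normally distributed. Neither holds, since the Ucn CpGs are part of the Ucn/Trim54 cluster and many levels lie near 0%. The number of flags can therefore not be set against 2.4, and mD3AKO 30 min sample 48 was flagged at both of these stretches. The intervals given here take every call as independent, although several CpGs share fragments, and can be too narrow. At the inner start of Crhr2, WT rest sample 11 had 44.9% (95% Wilson interval 40.9 to 49.0, 577 calls) where the others at rest had 1.65% to 10.0%. WT 10 min sample 35 had 49.9% (46.2 to 53.6, 696 calls) where the others had 3.47% to 9.32%, and mD3AKO 30 min sample 43 had 4.65% (3.42 to 6.29) where the others had 0% to 0.937%. At the 11 Ucn CpGs, WT rest sample 14 had 20.3% (17.5 to 23.4; others 8.75% to 10.8%), mD3AKO rest sample 24 had 10.8% (9.09 to 12.8; others 0.631% to 2.79%) and mD3AKO 30 min sample 48 had 11.9% (9.63 to 14.7; others 0.854% to 5.07%). At the whole Ucn/Trim54 cluster, mD3AKO 30 min sample 48 had 6.71% (5.50 to 8.14; others 2.34% to 4.22%) and mD3AKO 60 min sample 3 had 2.17% (1.63 to 2.89; others 3.40% to 4.13%).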

How the results depend on the processing

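The difference of mD3AKO minus WT kept its direction and moved by less than 1 SD of the WT samples under every alternative run. When each sample was left out, it lay between -11.9 and -11.0 percentage points for the Ucn/Trim54 cluster. For the inner start of Crhr2 it then lay between -16.3 and -13.9 (alternatives for Crhr2 were chosen after seeing the data). Under the other alternatives the ranges were -13.3 to -9.95 and -18.9 to -11.9. These ranges support nothing, since the same contrast chose the genes. At the Ucn/Trim54 cluster, where every mD3AKO sample was below every WT sample, leaving out a sample could not change the direction. Leaving out any 1 sample (on 1 in 20 clusters and the members) gave 0 called member clusters for time, the interaction, time in WT, time in mD3AKO and sex. With the likelihood ratio test 2 clusters near Ucn were called instead of 1, the second at Gckr and Fndc4. Of the lists it called 5 clusters lower and 1 higher, where the quasi-likelihood test called 4, all lower. The clusters of Pde4c and Prkar2b, among those 4, were not called by the likelihood ratio test. For the lists limma gave 5, and a minimum of 20 calls gave 3 of the 78 left. Over all 51038 clusters the likelihood ratio test called 1442 between genotypes and limma 895, where the quasi-likelihood test called 557. Of the 5 clusters most like Ucn/Trim54, 1 stayed among the first 5 with Spearman's rho and 0 with unweighted means. The likelihood ratio test called 376 clusters for time where the quasi-likelihood test called 0. No paired analysis was possible because no replicate number occurs in more than 1 group. Depth limited single CpGs most, with as few as 8 calls in a sample, and samples near 0% give only upper limits.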
